A study of Homo sapiens with 6 samples.

Results

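Nascent transcription of 10 genes of the YAP-TEAD axis was followed in HCT116 cells, an established human colorectal carcinoma line. The genes were taken by name from the sense-strand entries of the deposited files, 10 of 22984 genes. They comprised 7 target genes (CYR61, CTGF, THBS1, F3, AMOTL2, LATS2 and ANKRD1) and the factors TEAD1, YAP1 and WWTR1. The genes were selected on prior pathway knowledge and on the RPKM ratios to DMSO of CYR61, THBS1 and F3 after GSTO1 depletion and C1-27, so all differences of members between libraries are given as a description. Counts of members past a threshold stand beside the share of all genes, and nothing is read from them.

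YAP1 and WWTR1, the latter also called TAZ, are transcriptional coactivators that do not bind DNA themselves. They enter the nucleus and bind TEAD factors, which sit on MCAT elements in promoters and enhancers and switch on genes of adhesion, matrix and growth. The kinases LATS1 and LATS2 of the Hippo pathway phosphorylate both coactivators and hold them in the cytoplasm. Cell spreading, tension of the cytoskeleton, cell density and serum all feed into this step, and CYR61, CTGF and ANKRD1 are the targets most often used to read it.

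The study asked how transcription responds to loss or inhibition of GSTO1, glutathione S-transferase omega 1, an enzyme with an active-site cysteine. Bru-seq was used, in which cells take up bromouridine for 30 min and only the RNA made in that time is captured and sequenced. There were 6 libraries, 1 per treatment except for DMSO. These were 2 cultures in 0.01% DMSO for 4 h, C1-14 at 10 μM for 4 h, C1-27 at 1 μM for 4 h, C1-27 at 1 μM for 24 h, and siRNA against GSTO1 at 10 nM for 24 h (siGSTO1). The time of siGSTO1 follows the sample labels, and a sentence of the methods can be read as giving it the shorter time. C1-27 is a GSTO1 inhibitor and C1-14 served as its inactive analogue. No DMSO culture of 24 h and no culture with a non-targeting siRNA was analysed here, so a 24 h treatment cannot be told apart from the longer time, nor siGSTO1 from the transfection.

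The cultures were monolayers of 1 cell line without stromal or immune cells, and nothing in the labels says whether the DMSO cultures were grown on separate days. Sense reads numbered 18112861 to 36841146 per library, and antisense reads were 2.85% to 3.96% of the reads on both strands. Of 8 epithelial markers 4 (EPCAM, KRT8, KRT18 and KRT19) were above 0.5 RPKM in all 6 libraries, while VIL1 and CDX2 never reached that level. None of 6 fibroblast markers and none of 7 blood and endothelial markers reached it in any library, with summed levels of 0.0636 to 0.315 RPKM and 0.203 to 0.377 RPKM. GSTO1 itself was at 3.51 and 3.72 RPKM in the DMSO cultures and at 2.70 RPKM in siGSTO1. siRNA acts on mature RNA, so nascent RNA is not a direct check of the knockdown.

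RPKM, the read count over exons and introns scaled to gene length and sequencing depth, can be compared between genes. In bulk RNA of this kind, fewer transcribing cells and less transcription per cell cannot be told apart. Read ratios are ratios of read counts after each count was scaled to sequencing depth. The intervals given for them are exact 95% intervals by the Clopper-Pearson method and cover counting error only.

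Promoter sequence was not read from these data, although TEAD motifs are part of what is known of several of these genes. The letters GGAATG, the core of the MCAT element bound by TEAD factors, were searched on both strands of the RefSeq promoter windows of build GRCh38.p14, each with 250 bases before and 50 after a start. Of the 10 genes, 8 matched the table, with 10 windows between them. GGAATG occurred in 6 of the 10 windows, those of the targets CTGF, ANKRD1, THBS1, LATS2 and AMOTL2 (1 of its windows) and of the factor YAP1, and in 14.0% of the 35116 windows in the table. The AP-1 motif TGANTCA was searched likewise and occurred in 2 of the 10 windows, of ANKRD1 and F3, and in 7.71% of all windows. A CArG box, bound by the serum response factor, was in none of the members' windows, and 1.29% of all windows held one. A match is a run of letters and does not show that a factor was bound. The stretches with the matches follow on the strand of the gene, with both motifs in capitals. In AMOTL2 the TEAD motif lies on the other strand, and its complement is in capitals.

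CTGF, chr6:131951447-131951556, minus strand: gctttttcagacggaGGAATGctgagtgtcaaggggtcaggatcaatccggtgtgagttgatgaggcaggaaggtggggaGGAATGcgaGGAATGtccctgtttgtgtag
ANKRD1, chr10:90921195-90921322, minus strand: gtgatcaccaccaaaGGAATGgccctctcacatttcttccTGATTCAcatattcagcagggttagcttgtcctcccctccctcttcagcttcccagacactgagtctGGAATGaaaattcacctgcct
THBS1, chr15:39581018-39581053, plus strand: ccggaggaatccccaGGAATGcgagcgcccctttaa
AMOTL2, chr3:134374496-134374531, minus strand: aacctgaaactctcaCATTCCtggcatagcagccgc
LATS2, chr13:21061564-21061585, minus strand: acgcccgtGGAATGccaacaat
F3, chr1:94541948-94541997, minus strand: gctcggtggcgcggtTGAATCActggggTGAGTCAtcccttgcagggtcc
YAP1, chr11:102110270-102110305, plus strand: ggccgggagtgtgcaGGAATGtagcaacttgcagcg

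CTGF was the richest of these promoters, with GGAATG at positions -169, -104 and -95 from the start. Of all windows, 0.128% held 3 or more copies. ANKRD1 had 2 copies with an AP-1 motif between them, and 1.37% of all windows held 2 or more copies of GGAATG. In THBS1 the single copy lay at -46 and in AMOTL2 at -69. The LATS2 match lay at 10, inside the transcribed part. F3 had no GGAATG in this window but 2 AP-1 motifs, a number reached by 0.515% of all windows. Both WWTR1 windows held neither motif.

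**Figure D1:**
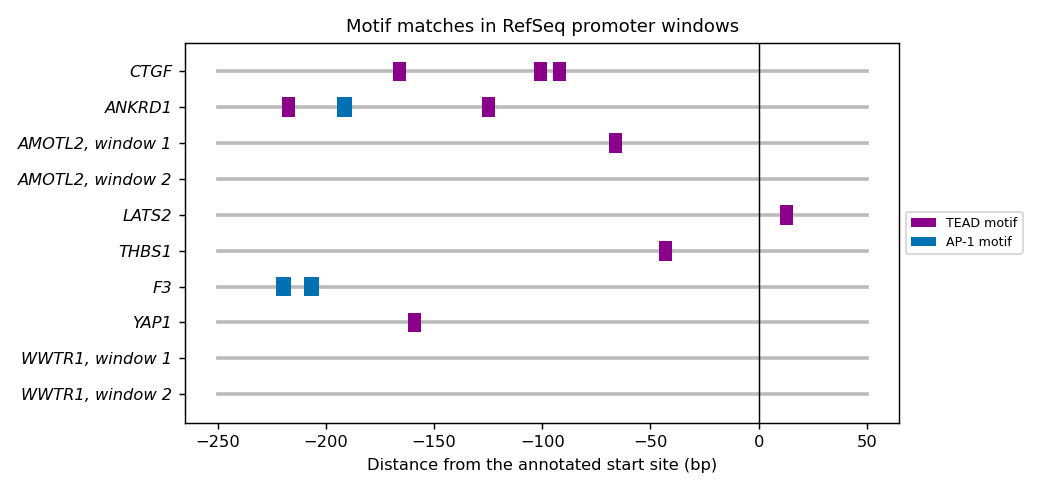
Matches to GGAATG (TEAD motif, purple) and TGANTCA (AP-1 motif, blue) along the 10 RefSeq promoter windows of 8 genes, by distance in bp from the annotated start, which is the vertical line at 0. CTGF carried 3 TEAD motifs (at -169, -104 and -95), F3 carried 2 AP-1 motifs and no TEAD motif, and the WWTR1 windows carried none.

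The 10 genes differed widely in level in the DMSO cultures. F3 was the highest at 16.5 ± 4.39 RPKM (SD, n = 2, as for all DMSO means below) and CYR61 next at 6.48 ± 2.62 RPKM. AMOTL2 followed at 2.82 ± 0.591 RPKM, TEAD1 at 2.13 ± 0.133 RPKM, YAP1 at 1.90 ± 0.121 RPKM and LATS2 at 1.52 ± 0.227 RPKM. THBS1 was at 1.41 ± 1.01 RPKM, WWTR1 at 1.28 ± 0.266 RPKM, CTGF at 0.631 ± 0.269 RPKM and ANKRD1 at 0.126 ± 0.0266 RPKM. The ranges of the DMSO cultures overlapped between neighbours in this order only for LATS2 with THBS1 and for THBS1 with WWTR1. CYR61 and CTGF encode matricellular proteins of the same CCN family from genes of almost equal length (3.21 and 3.20 kb), and their DMSO levels stood far apart.

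The DMSO cultures were themselves unlike each other at the target genes. Culture 2 was above culture 1 by 3.07-fold at THBS1, 1.86-fold at CTGF, 1.8-fold at CYR61 and 1.46-fold at F3. These were 4 of the 9 genes with a mean RPKM above 0.5, whereas 2.81% of 7816 such genes in the genome were 1.4-fold higher in culture 2. None of the 9 was 1.4-fold lower in culture 2, whereas 16.2% of genes were. For AMOTL2 and WWTR1 the ratio was 1.35, for LATS2 1.24, for TEAD1 1.09, for YAP1 0.914 and for ANKRD1 0.740. The fold thresholds below therefore had to hold against each culture singly. The labels do not say which DMSO culture belongs with which treatment. For F3, CYR61 and THBS1 the fold changes printed by the paper lay nearer to the ratios against culture 1 in siGSTO1. With C1-27 at 24 h they lay nearer to the ratios against culture 2.

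F3 encodes tissue factor, the cell-surface receptor that starts blood clotting, and lies on hg19 chr1:94994732-95007413. Its nascent level was 13.4 and 19.6 RPKM in DMSO cultures 1 and 2, 17.4 RPKM with C1-14 at 4 h, 18.1 RPKM with C1-27 at 4 h, 4.74 RPKM with C1-27 at 24 h and 1.74 RPKM in siGSTO1. Both 4 h treatments lay between the DMSO cultures, and both 24 h treatments lay below them. With siGSTO1 the level was 0.106 of the DMSO mean, 0.130 against culture 1 and 0.0890 against culture 2. With C1-27 at 24 h it was 0.288, with 0.355 and 0.242 against the single cultures. F3 had 580 reads in siGSTO1 and 10126 in DMSO culture 2. Scaled to depth, the read ratio of siGSTO1 to both DMSO cultures was 0.101 (95% interval 0.0924 to 0.109).

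CYR61 (chr1:86046444-86049648) encodes a secreted integrin ligand of the CCN family and is an immediate early gene. It was at 4.62 and 8.33 RPKM in DMSO, 8.80 RPKM with C1-14, 7.69 RPKM with C1-27 at 4 h, 2.65 RPKM with C1-27 at 24 h and 1.14 RPKM in siGSTO1. The 24 h cultures were again the lowest, and the C1-14 culture was the highest of the 6. The ratio to the DMSO mean was 0.176 for siGSTO1 (0.247 and 0.137 against the single cultures) and 0.408 for C1-27 at 24 h (0.573 and 0.317).

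CTGF (chr6:132269317-132272518), the fibrotic growth factor paralogous to CYR61, was transcribed at a much lower level with a like pattern. It was at 0.441 and 0.821 RPKM in DMSO, 1.10 RPKM with C1-14, 0.905 RPKM with C1-27 at 4 h, 0.244 RPKM with C1-27 at 24 h and 0.0714 RPKM in siGSTO1. Both 4 h treatments were above both DMSO cultures and both 24 h treatments below them. In reads the values were 33 and 107 in DMSO, 122, 112, 36 and 6, so the precision was low. The read ratio of siGSTO1 to both DMSO cultures summed was 0.105 (95% interval 0.0378 to 0.234), and that of C1-27 at 24 h was 0.359 (0.241 to 0.520).

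THBS1 (chr15:39873280-39889668) encodes thrombospondin 1, a matrix glycoprotein that binds CD36 and CD47 and can activate latent TGF-beta. It was at 0.694 and 2.13 RPKM in DMSO, 2.42 RPKM with C1-14, 2.04 RPKM with C1-27 at 4 h, 0.679 RPKM with C1-27 at 24 h and 0.121 RPKM in siGSTO1. The siGSTO1 culture stood below all others, whereas C1-27 at 24 h was level with DMSO culture 1. THBS1 had the widest range of the 10 genes, 20.0-fold between the C1-14 and siGSTO1 cultures. Its siGSTO1 ratio to the DMSO mean was the lowest, at 0.0856 (0.174 against culture 1 and 0.0568 against culture 2). Against culture 1 alone, F3 (0.130) and CTGF (0.162) were lower than THBS1. The C1-27 ratio at 24 h was 0.481, but 0.978 against culture 1 and 0.319 against culture 2. The fold change printed by the paper lay nearer to the ratio against culture 2.

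AMOTL2 and LATS2 encode inhibitors of the coactivators and are themselves targets, so that they close a negative feedback loop. AMOTL2 (chr3:134074190-134093406), a scaffold protein that retains YAP1 at cell junctions, was at 2.4 and 3.23 RPKM in DMSO, 3.00 RPKM with C1-14, 3.08 RPKM with C1-27 at 4 h, 1.84 RPKM with C1-27 at 24 h and 0.708 RPKM in siGSTO1. The siGSTO1 level was 0.251 of the DMSO mean (0.295 and 0.219 against the single cultures) and the C1-27 level at 24 h was 0.652 of it (0.766 and 0.568), both below each DMSO culture. LATS2 (chr13:21547176-21635722), the kinase, was at 1.35 and 1.68 RPKM in DMSO, 1.55 RPKM with C1-14, 1.71 RPKM with C1-27 at 4 h, 1.39 RPKM with C1-27 at 24 h and 0.876 RPKM in siGSTO1. Here siGSTO1 alone was below both DMSO cultures, at 0.578 of their mean (0.646 and 0.523), and C1-27 at 24 h lay between them.

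ANKRD1 (chr10:92671857-92681032), a nuclear ankyrin repeat protein first known from heart muscle, was barely transcribed in these cells. It was at 0.144 and 0.107 RPKM in DMSO, 0.107 RPKM with C1-14, 0.0800 RPKM with C1-27 at 4 h, 0.0237 RPKM with C1-27 at 24 h and 0.0747 RPKM in siGSTO1. Unlike the other target genes it was lowest with C1-27 at 24 h and not in siGSTO1. The reads behind these levels were 31 and 40 in DMSO, 34, 28, 10 and 18. The read ratio to both DMSO cultures was 0.196 (0.0903 to 0.383) for C1-27 at 24 h and 0.620 (0.348 to 1.05) for siGSTO1.

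**Figure D2:**
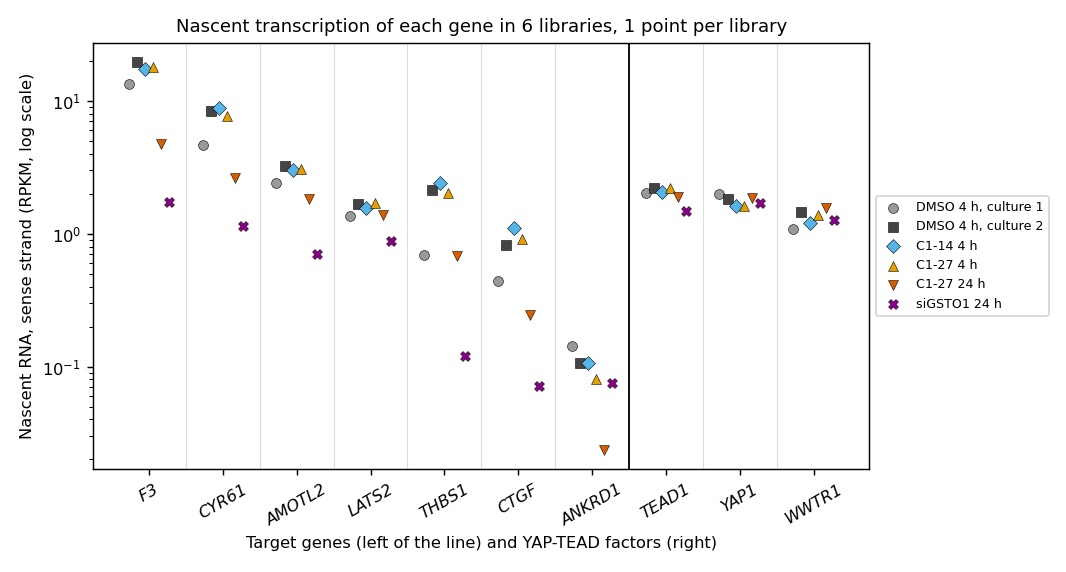
Sense-strand nascent RNA of the 10 genes (RPKM, log scale), 1 point per library, with target genes left of the vertical line, ordered by DMSO mean, and the factors right of it. The siGSTO1 points of F3, CYR61, AMOTL2, LATS2, THBS1 and CTGF are the lowest of their genes (1.74, 1.14, 0.708, 0.876, 0.121 and 0.0714 RPKM), while the points of YAP1 lie between 1.62 and 1.98 RPKM.

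The genes of the factors themselves moved less across the libraries than the target genes. TEAD1 (chr11:12695969-12966284), the DNA-binding partner, was at 2.03 and 2.22 RPKM in DMSO, 2.06 RPKM with C1-14, 2.21 RPKM with C1-27 at 4 h, 1.90 RPKM with C1-27 at 24 h and 1.49 RPKM in siGSTO1, which was 0.701 of the DMSO mean (0.734 and 0.672 against the single cultures). YAP1 (chr11:101981192-102104154) was at 1.98 and 1.81 RPKM in DMSO, 1.62 RPKM with each compound at 4 h, 1.85 RPKM with C1-27 at 24 h and 1.69 RPKM in siGSTO1. WWTR1 (chr3:149235022-149421060) was at 1.09 and 1.46 RPKM in DMSO, 1.21 RPKM with C1-14, 1.39 RPKM with C1-27 at 4 h, 1.55 RPKM with C1-27 at 24 h and 1.26 RPKM in siGSTO1. From the highest to the lowest library the range was 1.49-fold for TEAD1, 1.42-fold for WWTR1 and 1.23-fold for YAP1, against 1.95-fold to 20.0-fold for the target genes. YAP1 and WWTR1 are controlled mainly by phosphorylation, location and stability, none of which Bru-seq measures.

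In siGSTO1 all 7 target genes and 2 of the 3 factor genes (TEAD1 and YAP1) were below both DMSO cultures, a position held by 34.3% of 8129 genes with a mean RPKM above 0.5. No member was above both, beside 35.2% of genes. Of the 8 members above that level, 5 were 1.4-fold or more below each DMSO culture (F3, CYR61, THBS1, AMOTL2 and LATS2), as were 3.3% of genes. CTGF and ANKRD1 were under the level filter, although they are among the 7 target genes counted above. No member was 1.4-fold higher, against 6.46% of genes. The median log2 ratio was -2.51 for the target genes and -0.17 for the factor genes. It was -1.39 for the 10 genes and -0.00 for all genes. Rescaling RPKM by TMM or DESeq2 size factors moved the median of all genes in this culture to -0.11 or -0.15. The ratios of YAP1 (0.892) and TEAD1 (0.701) then became 0.825 or 0.805 and 0.648 or 0.631. The count of members 1.4-fold lower became 6 with either scaling, and the share of all genes was not counted there.

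With C1-27 at 24 h, 6 of the 7 target genes were below both DMSO cultures, LATS2 being the exception, against 21.5% of 7910 genes above the level filter. Of the 6, CTGF and ANKRD1 were under that filter, and THBS1 was at 0.978 of culture 1. Past 1.4-fold against each culture were F3 and CYR61, 2 of the 8 members above the level filter, beside 0.898% of genes. No member was 1.4-fold higher, beside 1.9% of genes. Without DMSO culture 1 the count of members past 1.4-fold lower was 5. The level filter was then taken without that culture, so that CTGF passed it and was among them. The share of all genes under that rule was not counted. The target genes had a median log2 ratio of -1.29 and the factor genes of -0.03, beside 0.03 for all genes. WWTR1 alone was above both DMSO cultures, at 1.21 of their mean, beside 36.9% of genes.

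At 4 h no target gene but ANKRD1, with C1-27, was below both DMSO cultures. ANKRD1 was under the level filter on which the shares of genes below rest. With C1-27, CTGF and LATS2 were above both DMSO cultures (21.6% of genes) and ANKRD1 and YAP1 below them (18.9%), and none of 9 members passed 1.4-fold against each culture in either direction, beside 0.144% of genes higher and 0.209% lower. With C1-14, CYR61, CTGF and THBS1 were above both DMSO cultures (27.2% of genes) and YAP1 below (21.6%), and again no member passed, beside 1.97% of genes higher and 0.0772% lower. Against DMSO culture 1 alone, THBS1 was 2.94-fold higher with C1-27 and 3.48-fold higher with C1-14, and against culture 2 alone the ratios were 0.958 and 1.14. Without DMSO culture 2, 3 members were past 1.4-fold higher with each compound. These were CYR61, CTGF and THBS1, which were also higher in DMSO culture 2 than in culture 1. The share of all genes under that rule was not counted. The median log2 ratio of the target genes was 0.17 with C1-27 and 0.09 with C1-14. The compounds were given at different doses (1 μM and 10 μM) and in 1 culture each, and the values stand side by side without a comparison.

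**Figure D3:**
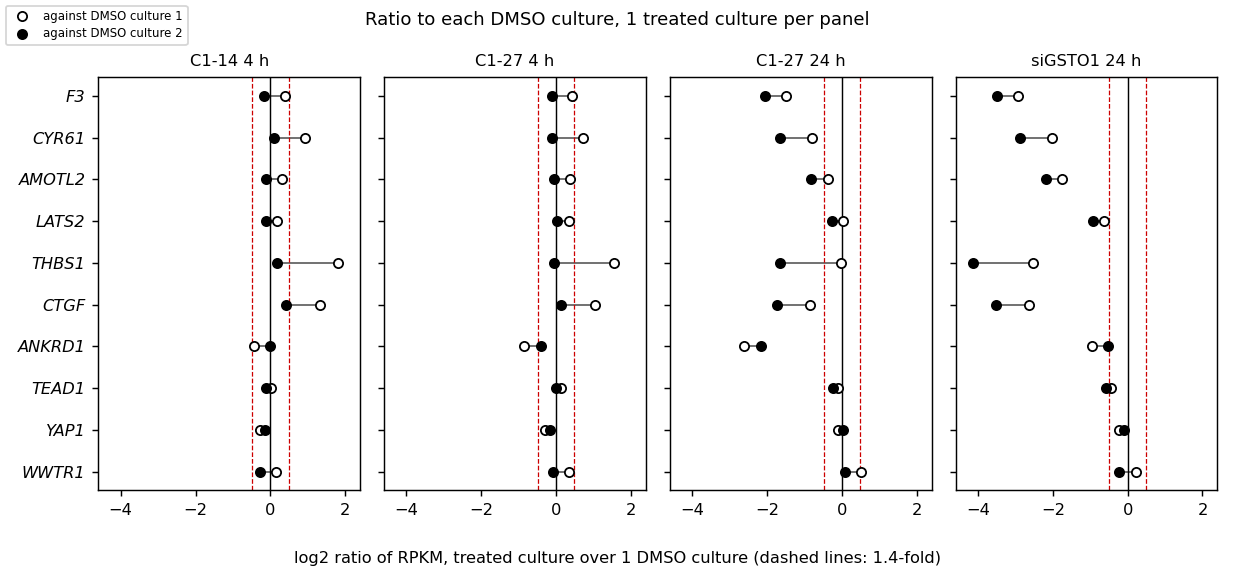
Ratio of RPKM to DMSO culture 1 (open circles) and to DMSO culture 2 (filled circles) on the log2 scale for 10 genes, 1 treated culture per panel, with dashed lines at 1.4-fold. In siGSTO1 both circles of F3, CYR61, AMOTL2, LATS2, THBS1, CTGF and ANKRD1 lie left of the dashed line, and with C1-27 at 24 h the circles of THBS1 span from 0.978 to 0.319 of DMSO.

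C1-27 was the only treatment sampled at both times. The 24 h level was 0.262 of the 4 h level for F3, 0.270 for CTGF, 0.296 for ANKRD1, 0.333 for THBS1, 0.344 for CYR61 and 0.595 for AMOTL2. LATS2 and TEAD1 were at 0.815 and 0.857, and WWTR1 and YAP1 at 1.11 and 1.15. Thus 6 of the 7 target genes were at or under 0.595 of their 4 h level, although ANKRD1 came to 0.687 with a pseudocount of 0.1 RPKM, and the coactivator genes were slightly above theirs. Of the 9 members above the level filter, 5 were past 1.4-fold lower (F3, CTGF, THBS1, CYR61 and AMOTL2) beside 1.59% of 7777 genes, and none was past 1.4-fold higher, beside 5.16%. Each time had 1 culture, and no vehicle culture of 24 h was used here.

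The 24 h cultures also differed from each other in these genes. The siGSTO1 level was 0.178 of the C1-27 level at THBS1, 0.292 at CTGF, 0.367 at F3, 0.386 at AMOTL2, 0.431 at CYR61 and 0.628 at LATS2, and 0.787 to 0.913 at the factor genes. ANKRD1 went the other way at 3.15-fold, from 18 and 10 reads (interval of the read ratio 1.38 to 7.65), and was at 1.41-fold with a pseudocount of 0.1 RPKM. With that pseudocount CTGF was at 0.498. At 1.4-fold, 4 of the 7 members above the level filter were lower in siGSTO1 (F3, CYR61, AMOTL2 and LATS2), beside 4.59% of 8184 genes, and none was higher, beside 8.68%. THBS1, CTGF and ANKRD1 were under the filter. The DMSO cultures also differed at these genes, by 3.07-fold at THBS1, 1.86-fold at CTGF and 1.8-fold at CYR61. With siGSTO1 set against DMSO culture 1 and C1-27 against culture 2, THBS1 was at 0.174 and 0.319 and CYR61 at 0.247 and 0.317. With the DMSO cultures exchanged, THBS1 was at 0.0568 and 0.978 and CYR61 at 0.137 and 0.573. An siRNA and a compound at 1 dose are compared here, with 1 culture each, so agent and culture cannot be told apart.

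In the edgeR fit across 14428 genes, the members with an adjusted p under 0.05 numbered 6 lower in siGSTO1 (F3, CYR61, THBS1, AMOTL2, LATS2 and CTGF), beside 1.16% of genes, and 2 lower with C1-27 at 24 h (F3 and CYR61), beside 0.118%. There were 3 lower with C1-27 at 24 h against 4 h (F3, THBS1 and CYR61), beside 0.0624%, and 3 lower in siGSTO1 against C1-27 at 24 h (THBS1, F3 and AMOTL2), beside 0.236%. None was called with C1-27 at 4 h, beside 0.0139% of genes higher and 0% lower, or with C1-14, beside 0.111% and 0.00693%. At an unadjusted p under 0.05 edgeR gave 0 members for C1-27 at 4 h and 1 for C1-14, and DESeq2 called none in either. No member was called higher in any of these comparisons. Genes called higher made up 3% in siGSTO1 and 0.159% with C1-27 at 24 h. They made up 0.0416% for C1-27 at 24 h against 4 h and 0.755% for siGSTO1 against C1-27 at 24 h. The values of these libraries had chosen the members and the fit takes its spread from DMSO alone, so these counts are no test of the members.

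The other genes of the pathway, on lists that hold none of the 10 members, were tested with edgeR, adjusted over all 14428 genes. The lists were chosen with earlier results of these data known, so their calls are a description and no independent test. NT5E was among the most lowered genes that the paper printed for siGSTO1 and for C1-27 at 24 h. The single treated libraries were assumed to vary like the DMSO cultures, and p-values measure the spread between these libraries, which may be technical. Of 49 listed genes 41 had enough reads. In siGSTO1, 9 fell and 1 rose (edgeR adjusted p under 0.05), beside 1.16% and 3% of all genes. The 9 became 5 with DESeq2 size factors in edgeR and without the count filter, where CRIM1, NT5E, AXL, TGFB2 and NF2 kept their calls, and 6 in a fit of this comparison alone. DESeq2 called 8 lower and did not call the single increase. With C1-27 at 24 h, 1 fell and none rose, beside 0.118% and 0.159%, and DESeq2 gave the same counts. None was higher at an unadjusted p under 0.05. In the comparisons of C1-27 and of C1-14 with DMSO at 4 h, none passed in edgeR or DESeq2, and none had an unadjusted p under 0.05.

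Other YAP and TAZ target genes made up most of the decreases, with 6 of 14 tested (CRIM1, NT5E, AXL, TGFB2, DOCK5 and PTPN14). DOCK5 and PTPN14 lost their calls with DESeq2 size factors in edgeR (adjusted p = 0.151 and 0.118) and without the count filter (0.086 and 0.0842). Both also lost their calls in a fit of this comparison alone, whereas DESeq2 called both. CRIM1, a membrane protein that binds BMPs, was at 2.64 and 5.09 RPKM in DMSO and at 1.01 RPKM in siGSTO1. Its log2 fold change was -2.06 ± 0.343 (SE, edgeR adjusted p = 5.77e-07), but DESeq2 gave an adjusted p of 0.291. NT5E, the ecto-5'-nucleotidase CD73, was at 2.01 and 2.04 RPKM in DMSO, 0.868 RPKM with C1-27 at 24 h and 0.736 RPKM in siGSTO1. It fell in both 24 h cultures, by 1.57 ± 0.265 on the log2 scale in siGSTO1 (edgeR adjusted p = 9.50e-07) and by 1.27 ± 0.260 with C1-27 (edgeR adjusted p = 0.000965). AXL, a receptor tyrosine kinase, fell by 1.44 ± 0.258 in siGSTO1 (edgeR adjusted p = 5.67e-06), from 2.20 and 2.33 RPKM to 0.906 RPKM. TGFB2, a secreted TGF-beta ligand, fell by 1.16 ± 0.336 (edgeR adjusted p = 0.0184; DESeq2 adjusted p = 0.227), from a low level of 0.144 and 0.297 RPKM to 0.108 RPKM. Over the list the median log2 fold change was -0.99, with 12 of 14 genes below 0, beside 0.01 and 48.6% for all genes tested. With C1-27 at 24 h the median was -0.43, with 13 of 14 genes below 0 beside 50.4% of all genes. GADD45A, a stress gene also controlled by p53, was the member of this list with the highest siGSTO1 value, 5.20 RPKM against 2.70 and 3.23 RPKM (log2 fold change 0.69 ± 0.379, edgeR adjusted p = 0.403).

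Among 20 Hippo kinases and regulators, 2 fell and 1 rose in siGSTO1. NF2, the membrane-linked tumour suppressor merlin that activates LATS kinases, was at 2.65 and 3.33 RPKM in DMSO, 1.94 RPKM with C1-27 at 24 h and 1.13 RPKM in siGSTO1. It fell by 1.53 ± 0.284 on the log2 scale in siGSTO1 (edgeR adjusted p = 1.57e-05). WWC1, the scaffold KIBRA, fell by 0.98 ± 0.291 (edgeR adjusted p = 0.0236), a call lost with DESeq2 size factors in edgeR (adjusted p = 0.105), without the count filter (0.0697) and in a fit of this comparison alone (0.0651). AMOT, the paralogue of AMOTL2, rose 3.39-fold (log2 1.76 ± 0.454, edgeR adjusted p = 0.00530) from 0.0441 and 0.0531 RPKM to 0.180 RPKM, but DESeq2 gave an adjusted p of 0.1. AMOT and AMOTL2 thus lay on opposite sides of DMSO in the siGSTO1 culture. The core kinases STK3, STK4 and LATS1 were at 0.900, 0.935 and 0.804 of DMSO in the same fit, with edgeR adjusted p of 0.904, 0.935 and 0.645. DESeq2 called both NF2 and WWC1 lower in siGSTO1. The list's median log2 fold change was -0.25. SAV1, the adaptor of the core kinases, was at 2.45 and 3.99 RPKM in DMSO, a wider range than the distance of siGSTO1 (2.13 RPKM) from their mean ( edgeR adjusted p = 0.0820).

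Of 5 TEAD factors and cofactors tested, TEAD4 fell in siGSTO1, by 0.86 ± 0.252 on the log2 scale (edgeR adjusted p = 0.0222, DESeq2 adjusted p = 0.0707), from 1.66 and 1.42 RPKM to 0.918 RPKM. The call was also lost with DESeq2 size factors in edgeR (adjusted p = 0.0501) and without the count filter (0.0663). VGLL4, which competes with YAP1 for TEAD factors, was at 0.901 and 0.788 RPKM in DMSO and 0.792 RPKM in siGSTO1. The remaining CCN genes (NOV and WISP1 to WISP3) and THBS2 had too few reads to test. THBS3 and THBS4 were below 0.14 RPKM in every library, and neither passed (edgeR adjusted p = 0.0825 and 0.955 in siGSTO1). In siGSTO1 set against C1-27 at 24 h, CRIM1 and AXL were lower by 1.63 ± 0.365 and 1.02 ± 0.281 on the log2 scale (edgeR adjusted p = 0.00262 and 0.0345), while NT5E was not called (log2 fold change -0.30 ± 0.286, adjusted p = 0.998). Neither call held in DESeq2 or with DESeq2 size factors in edgeR, and AXL was not called without the count filter.

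**Figure D4:**
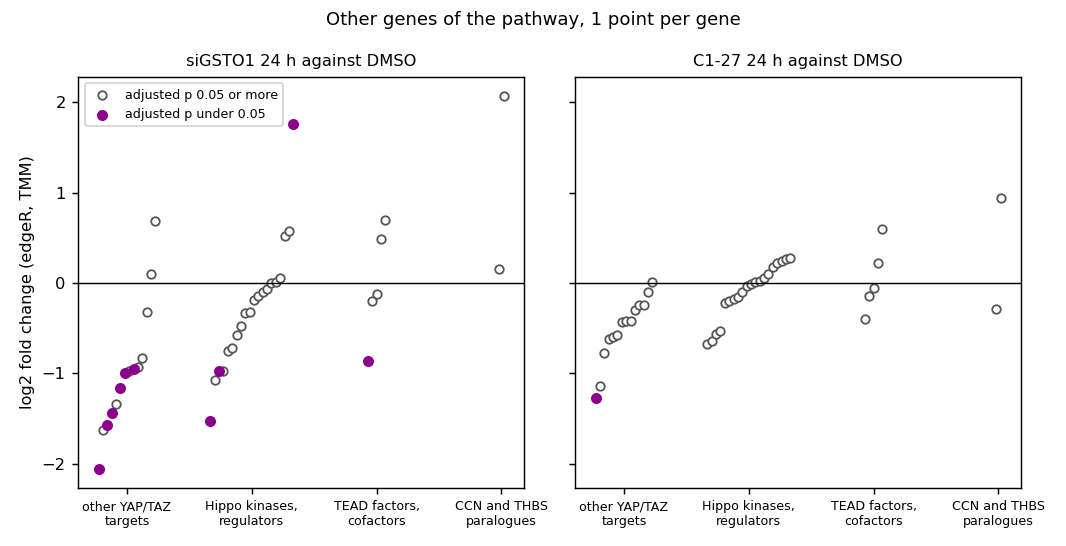
edgeR log2 fold changes of 41 other pathway genes against DMSO, 1 point per gene in 4 lists, for siGSTO1 (left) and C1-27 at 24 h (right), with filled points for an adjusted p under 0.05. The siGSTO1 panel has 9 filled points below 0 and 1 above (AMOT, 1.76), and the C1-27 panel has 1 (NT5E, -1.27).

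Other genes were ranked by their likeness to CYR61, THBS1 and F3 across the 6 libraries. Likeness was measured as the Euclidean distance between centred log2(RPKM + 0.1) profiles over 7904 genes with a mean RPKM above 0.5, a description over libraries that share cells and controls. The member nearest to CYR61 was CTGF, at 0.30, then F3 at 0.75, THBS1 at 0.79 and AMOTL2 at 0.93, whereas WWTR1 and YAP1 were at 2.55 and 2.58. Outside the members, the nearest genes to CYR61 were LOC730755 (0.42), the secreted carboxypeptidase gene CPA4 (0.68), CAV1 (0.94), which encodes the caveolar coat protein caveolin 1, GDA (1.00) and CRIM1 (1.01), which is also one of the listed pathway genes. LOC730755, CPA4, CAV1 and CRIM1 were also among the 5 nearest to THBS1 and to F3. The list for THBS1 was completed by CAV2 (1.45), and that for F3 by RPL13AP20 (1.56), a pseudogene whose reads can be split with near-identical copies. CPA4 was at 1.83 and 3.12 RPKM in DMSO, 2.80 RPKM with C1-14, 2.62 RPKM with C1-27 at 4 h, 1.42 RPKM with C1-27 at 24 h and 0.282 RPKM in siGSTO1. CAV1, at 7.30 and 15.1 RPKM in DMSO, was at 12.6, 12.9, 8.21 and 2.95 RPKM in the same order.

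Antisense reads were counted apart from the sense reads on which the members were selected. THBS1 had 12 and 30 antisense reads in DMSO, 18 with C1-14, 19 with C1-27 at 4 h, 59 with C1-27 at 24 h and 39 in siGSTO1. In RPKM this was 2.05 times the DMSO mean with C1-27 at 24 h and 2.38 times in siGSTO1, both above each DMSO culture. The sense levels of the factor genes moved less than those of the targets. Their siGSTO1 antisense level was 2.70 times the DMSO mean for YAP1 (18 reads against 5 and 12) and 2.51 times for TEAD1 (22 against 11 and 8). For WWTR1, which had more antisense reads, it was 1.08 times the DMSO mean (41 against 32 and 62). FSIP1, the nearest gene to THBS1 on the opposite strand, ends 2.56 kb away, and was at 0.0667 and 0.0601 RPKM in DMSO, 0.1 RPKM with C1-27 at 24 h and 0.133 RPKM in siGSTO1. Whether the antisense reads belong to FSIP1 transcripts was not tested.

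F3 had 42 and 30 antisense reads in DMSO, 22 with C1-14, 32 with C1-27 at 4 h, 73 with C1-27 at 24 h and 52 in siGSTO1. Relative to depth, siGSTO1 was at 1.56 and C1-27 at 24 h at 1.26 of the DMSO mean, the latter below DMSO culture 1 (1.42). At ANKRD1 the antisense strand exceeded the sense strand in all 6 libraries, with 38 and 57 reads in DMSO, 43, 55, 89 and 70. RPP30 lies 3.54 kb away on the opposite strand and was at 1.58 to 1.85 RPKM. CTGF had no antisense read in any library, a count of 0 that allows up to 3 reads per library. Over 7687 genes the median antisense ratio to DMSO was 1.17 in siGSTO1 and 0.997 with C1-27 at 24 h. None of the 10 genes overlapped another gene on its own strand.

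**Figure D5:**
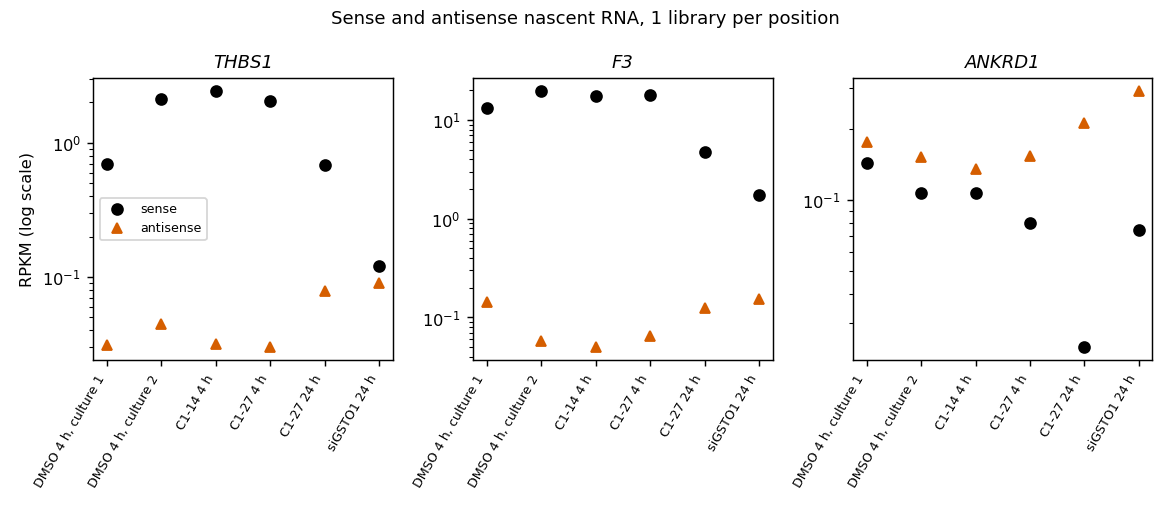
Sense (black circles) and antisense (orange triangles) RPKM on log axes at THBS1, F3 and ANKRD1, 1 library per position. At THBS1 the sense level was 0.121 RPKM in siGSTO1 against 0.694 and 2.13 RPKM in DMSO and the antisense points of both 24 h cultures are the highest, and at ANKRD1 each triangle lies above its circle.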

How the data were processed

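Bru-seq libraries of 6 HCT116 cultures were analysed from 1 text file per library. The authors deposited expected counts per gene and strand, which were reads over exons and introns, not normalized and often not whole (28.9% to 40.8% of sense entries), and they were rounded before testing. The deposited signal, a coverage per bp, was not used in any test. RPKM was computed by the authors from gene length and mapped reads. The submitters' processing notes name CASAVA 1.8.2, Bowtie 0.12.8, TopHat 1.4.1, bedtools 2.16.2 and build hg19, without roles. Ambiguous entries (48) were left out.

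Treated RPKM was divided by the average DMSO RPKM, with nothing added. For counts past 1.4-fold, genes over 300 bp with a mean RPKM above 0.5 were used, and the threshold had to hold against each DMSO culture. All 6 libraries were fitted in 5 groups with edgeR 4.0.16 in R 4.3.3 (TMM, quasi-likelihood test, Benjamini-Hochberg adjustment within a comparison) over 14428 genes longer than 300 bp and with 10 or more reads in 2 libraries. The fit had 1 residual degree of freedom, from DMSO, and a common dispersion of 0.0381. The test gives no standard error. The SE printed was the size of the log2 fold change over the square root of the F statistic, an approximation. DESeq2 1.42.0 was the alternative. Only the edgeR and DESeq2 fits were tried on simulated counts, with large planted changes and the same dispersion for all genes. The other steps were not simulated. Python 3.11.15 with pandas 2.3.3, numpy 2.4.6, scipy 1.17.1 and matplotlib 3.10.9 was used for the rest.

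The members and lists were chosen with earlier results of these data known. Beyond the members, the genes named were, per list and comparison, up to 4 with an edgeR adjusted p under 0.05 or otherwise the 2 with the highest RPKM, and the 5 genes most like CYR61, THBS1 and F3. DOCK5, PTPN14, GADD45A, STK3, STK4, LATS1, FSIP1 and RPP30 were named after their values were seen. Alternatives were DESeq2, other scalings, filters, a pseudocount, a 2-fold threshold and 1 DMSO culture. CYR61 and TEAD1 were not matched in the promoter table.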

Additional observations from a re-analysis of the deposited data

Results flagged for a closer look

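CTGF lay on opposite sides of both DMSO cultures with C1-27 at 4 h and at 24 h. It was at 0.905 RPKM at 4 h and 0.244 RPKM at 24 h, a ratio of 0.270, with DMSO at 0.441 and 0.821 RPKM. AMOT did the opposite at a low level, with 0.0416 RPKM at 4 h, 0.0577 RPKM at 24 h and DMSO at 0.0441 and 0.0531 RPKM, a ratio of 1.39. Each time had 1 culture. In edgeR the AMOT difference between the times was 0.39 ± 0.551 on the log2 scale (adjusted p = 1), and CTGF was not called.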

How the results depend on the processing

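No paired analysis was run, because the treated groups have 1 library each and share fewer than 2 replicate numbers with DMSO. The labels pair no treated culture with a DMSO culture. The fold changes printed by the paper, which lay nearer to 1 DMSO culture per 24 h treatment, were not used to pair them. The edgeR fit without a DMSO library has no residual degree of freedom and was not run. Each value that follows is a count of genes. With DESeq2 the calls over all genes, higher and lower, were 131 and 82 in siGSTO1 (433 and 168 in edgeR), 10 and 8 with C1-27 at 24 h (23 and 17), 0 and 0 with C1-27 at 4 h (2 and 0), 2 and 0 with C1-14 (16 and 1), 2 and 3 for C1-27 at 24 h against 4 h (6 and 9), and 19 and 3 for siGSTO1 against C1-27 at 24 h (109 and 34). Members called lower by DESeq2 were 3 in siGSTO1 (6 in edgeR), 1 with C1-27 at 24 h (2), 1 between its times (3) and 1 for siGSTO1 against C1-27 (3). For other pathway genes DESeq2 called 0 higher in siGSTO1 (1 in edgeR), and 0 lower against C1-27 at 24 h (2). With DESeq2 size factors in edgeR, or without the count filter, other pathway genes called lower in siGSTO1 were 5 (9), those lower against C1-27 were 0 and 1 (2), and 1 gene was called higher with C1-27 at 4 h. Without the gene length filter 2 genes were called lower there (0). Members past 1.4-fold lower with C1-27 at 24 h (2) were 4 without the RPKM filter and 1 at 2-fold. Leaving out 1 DMSO culture, an alternative chosen after seeing the data, gave 2 to 5 members lower and 0 to 1 higher with C1-27 at 24 h, and 0 to 3 higher with C1-27 or C1-14 at 4 h, the larger counts of higher genes without culture 2. The THBS1 ratio with C1-27 at 4 h reversed from 1.44 to 0.958 without culture 1, and was 2.94 without culture 2. The cause was not tested beyond the DMSO values given. With a pseudocount of 0.1 RPKM CTGF moved to 0.235 in siGSTO1 and 0.498 for siGSTO1 against C1-27 at 24 h. ANKRD1 moved to 0.774 in siGSTO1, 0.548 and 0.798 with C1-27 at 24 h and 4 h, 0.687 between these times and 1.41 for siGSTO1 against C1-27. Depth limits CTGF and ANKRD1, with 6 to 122 and 10 to 40 reads.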
